A study of Homo sapiens with 2 samples.

Results

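Long runs of closely spaced peaks lay over 10 genes of NB4 cells, at 7 separate stretches of 6 chromosomes. The genes were PIEZO1 and SNAI3 on chromosome 16, ZMIZ1, VENTX and ADAM8 on chromosome 10, CYTH2 and LMTK3 on chromosome 19, SEPT9 on chromosome 17, FGFRL1 on chromosome 4 and RBM38 on chromosome 20. They were chosen by the number of peaks in the runs over them in this same list, so their peak counts, run lengths and signals are given as a description and no test is made of them. A window was the gene body in hg19, known to the nearest kb, with 20 kb on either side. Of 20085 listed peaks, 178 overlapped at least 1 of the 10 windows. NB4 cells are an established line from a patient with acute promyelocytic leukemia and carry the PML-RARA fusion. They formed 1 group of 2 replicates, for which the labels name no treatment, and the DNA next to a PML-RARA antibody was cut out by CUT&Tag, in which a tethered transposase adds sequencing adapters. Both replicates are represented by 1 merged peak list of the authors, so no value per replicate, spread or sequencing depth was at hand, and no control antibody was analysed here. A peak list holds no expression values, so the identity of the cells was not checked against marker genes.

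PML-RARA joins the nuclear body protein PML to the retinoic acid receptor alpha. It binds DNA together with retinoid X receptors at copies of a nuclear receptor half-site and is known for recruiting co-repressors that hold back the maturation of promyelocytes. The products of the 10 genes work in different places. PIEZO1 is a mechanically gated cation channel, ADAM8 a membrane metalloprotease of leukocytes, FGFRL1 a fibroblast growth factor receptor without a kinase domain and LMTK3 a membrane-anchored kinase. CYTH2 is an exchange factor for ARF GTPases, and SEPT9 is a septin, a GTPase of the cytoskeleton. SNAI3 is a zinc finger factor of the Snail family, VENTX a homeobox factor of blood cells, ZMIZ1 a transcriptional co-activator with a PIAS-type zinc finger and RBM38 an RNA-binding protein under control of p53.

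The letters of 4 gene starts are shown because they cover the range of signal found at a start. CYTH2 and ADAM8 had the strongest peak of their window there, VENTX had a weak peak next to it, and SEPT9 had none within 2 kb. The sequences come from RefSeq on GRCh38.p14, run from 250 bases before the start to 50 after it, 5′ to 3′ along the gene, and lie at chr19:48469119-48469418 (+ strand), chr10:133276819-133277118 (- strand), chr10:133237605-133237904 (+ strand) and chr17:77281249-77281548 (+ strand). All peak positions below are hg19, and no coordinates were converted. Capitals mark GGGCGG, the GC box of SP and KLF factors, GAGGAA, a core of ETS factors such as PU.1, TGTGGT, a core of RUNX factors, and TATAAA, the TATA box, each on either strand.
CYTH2: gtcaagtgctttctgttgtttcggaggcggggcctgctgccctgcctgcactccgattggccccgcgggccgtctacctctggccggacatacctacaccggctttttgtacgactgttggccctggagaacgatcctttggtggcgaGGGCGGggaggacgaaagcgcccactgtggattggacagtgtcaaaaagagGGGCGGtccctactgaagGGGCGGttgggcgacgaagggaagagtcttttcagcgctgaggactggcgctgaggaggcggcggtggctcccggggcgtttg
ADAM8: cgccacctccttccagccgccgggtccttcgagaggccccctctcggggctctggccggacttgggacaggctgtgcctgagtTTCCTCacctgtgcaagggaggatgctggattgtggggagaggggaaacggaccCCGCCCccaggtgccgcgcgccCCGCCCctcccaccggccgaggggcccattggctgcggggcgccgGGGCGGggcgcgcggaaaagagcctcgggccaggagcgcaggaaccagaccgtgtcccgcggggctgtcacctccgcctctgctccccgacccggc
VENTX: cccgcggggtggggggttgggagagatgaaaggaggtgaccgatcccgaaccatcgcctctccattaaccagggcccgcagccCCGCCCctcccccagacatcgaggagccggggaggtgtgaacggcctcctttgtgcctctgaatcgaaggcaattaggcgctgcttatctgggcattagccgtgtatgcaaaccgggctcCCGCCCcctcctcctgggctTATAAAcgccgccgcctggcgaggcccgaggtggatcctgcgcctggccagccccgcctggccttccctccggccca
SEPT9: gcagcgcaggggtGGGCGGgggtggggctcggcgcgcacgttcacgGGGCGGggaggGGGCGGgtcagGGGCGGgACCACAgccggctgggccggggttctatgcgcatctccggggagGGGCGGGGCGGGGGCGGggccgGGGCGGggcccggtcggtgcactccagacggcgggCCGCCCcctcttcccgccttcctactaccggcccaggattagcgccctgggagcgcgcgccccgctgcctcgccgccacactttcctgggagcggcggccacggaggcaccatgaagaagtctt

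Promoter entries were found for 8 of the 10 genes, with SEPT9 listed as SEPTIN9, and none for SNAI3 or ZMIZ1. Taking the first entry of each gene, GC content ran from 63.3% in CYTH2 to 82.7% in RBM38, and all 8 lay above the median of 58.7% over 34796 distinct promoters. GGGCGG was present in 8 of 8, against 44.9% of all promoters. It occurred 9 times in SEPT9, with overlaps, and 3 times each in CYTH2 and ADAM8. TATAAA stood at position -27 in both VENTX and PIEZO1, counted from 0 at the first transcribed base, and in none of the other 6 (11.6% of all promoters). GAGGAA was found in ADAM8, FGFRL1 and LMTK3, 3 of 8 (27.9% of all), and TGTGGT in SEPT9 alone, 1 of 8 (13.1%). The nuclear receptor half-site AGGTCA, the C/EBP core TTGCNNAA and the AP-1 site TGACTCA had no match in these 8 windows and matched 13.8%, 10.5% and 4.96% of all promoters. The entries of FGFRL1 and LMTK3 start 2252 and 1845 bases inside the gene as the same annotation gives it, while the other 6 begin at its outer end. These are matches of letters and no measure of binding.

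All 10 windows were dense in peaks and held between 8 (SNAI3) and 42 (ZMIZ1) of them. Per 50 kb this came to between 5.77 in SEPT9 and 17.6 in CYTH2. Each of the 10 thus held 5 or more peaks per 50 kb, a level reached by 1.52% of 60716 bins of 50 kb on chromosomes 1 to 22 and X, of which 84.5% held no peak. Listed peaks covered from 15.6% of the window in SEPT9 to 63.0% in ADAM8, against 0.779% of the chromosomes. The genes were selected for such density, and nothing is read from the contrast. The plot of peak maxima along each gene shows the layout that the following paragraphs describe.

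**Figure D1:**
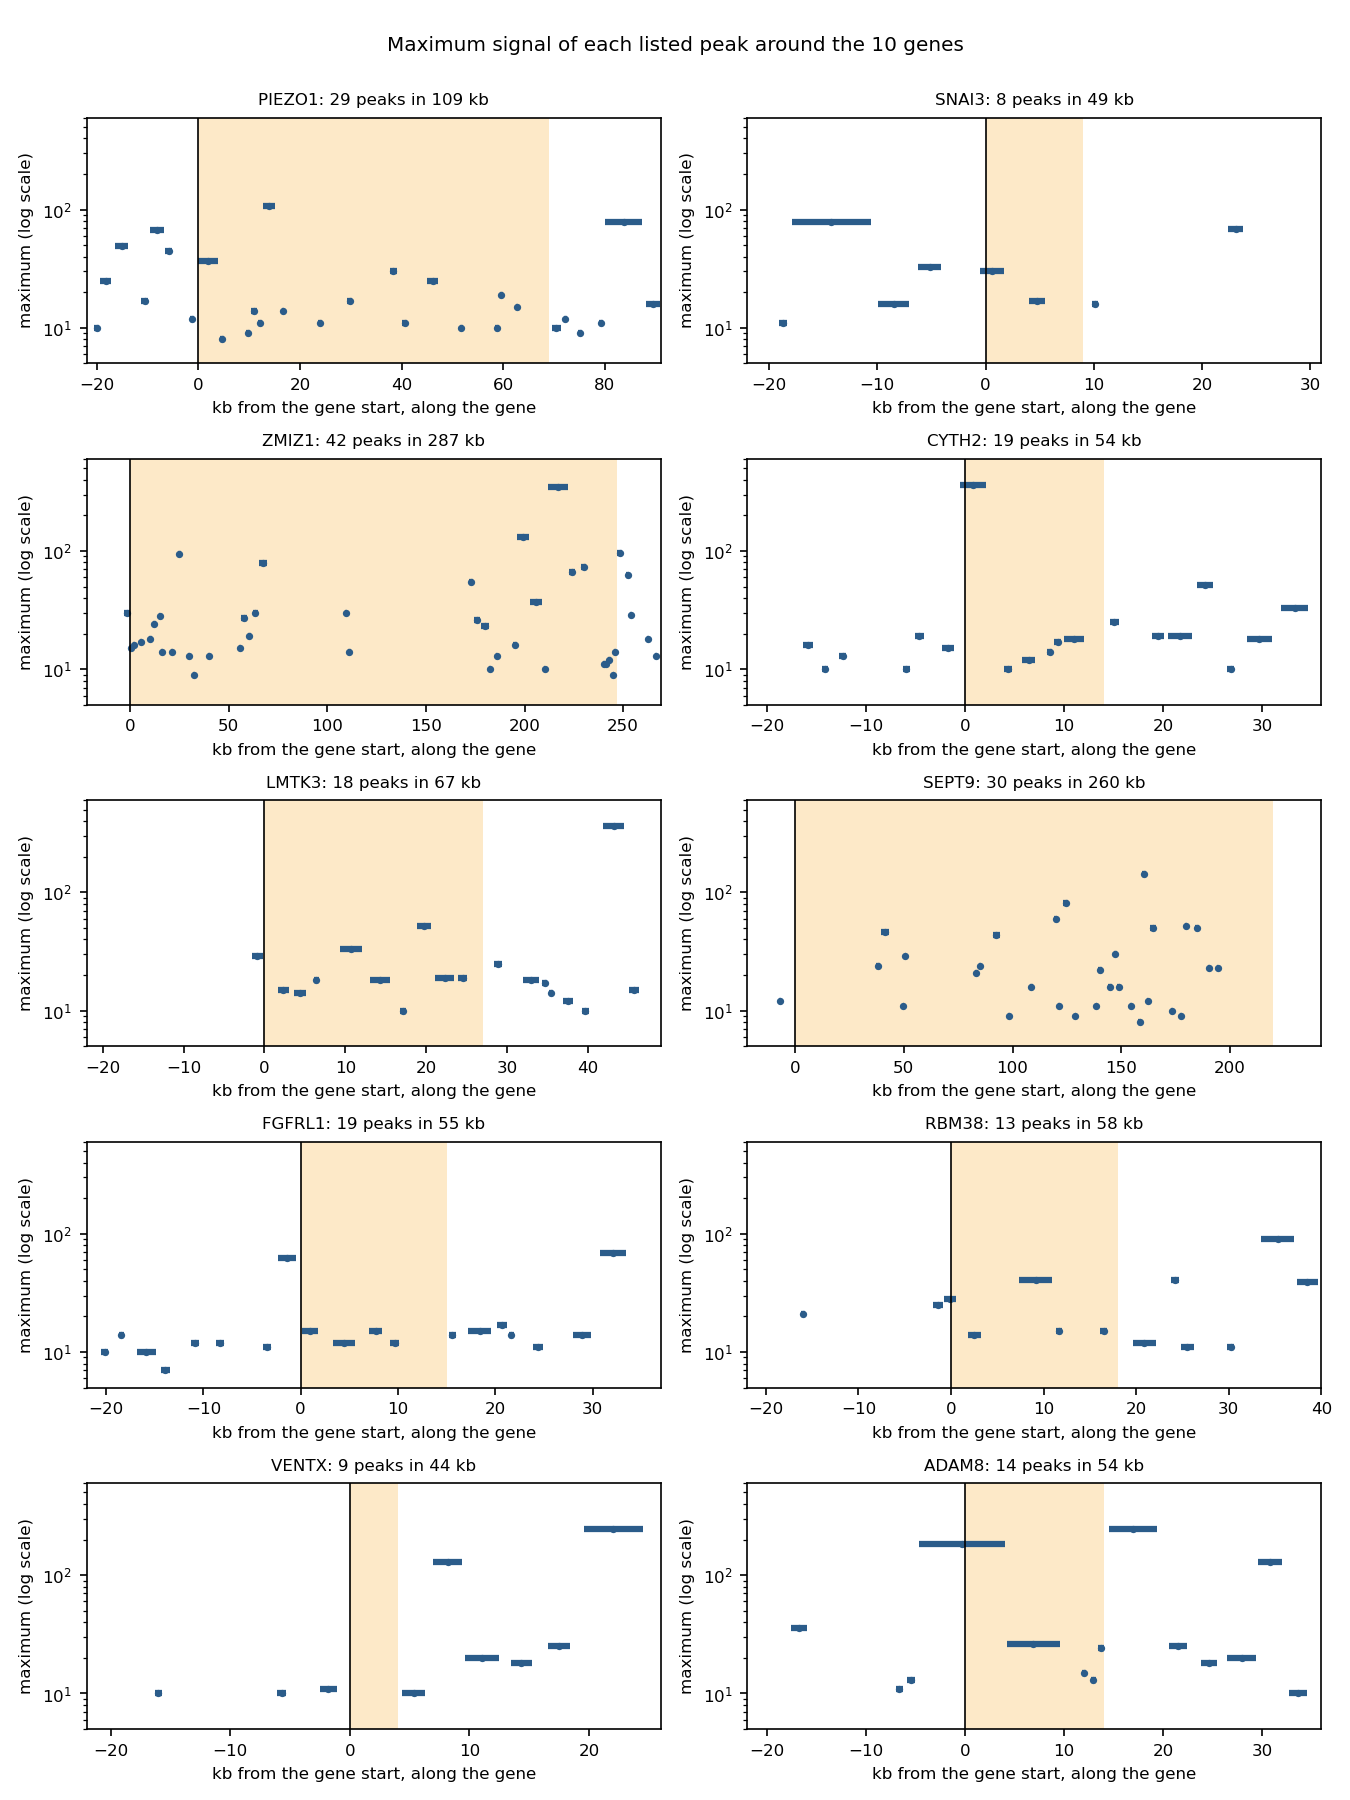
Each horizontal segment is a listed peak, drawn from its start to its end in kb along the gene (x axis, 0 at the gene start) at its maximum signal (y axis, log scale, in the coverage units of the deposited list); dots mark midpoints, the shaded area is the gene body, and the black line its start. The highest peak sits at the start in CYTH2, deep inside the gene in ZMIZ1, and beyond the end of the gene in VENTX, ADAM8, LMTK3, RBM38 and FGFRL1.

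The 7 longest runs over these genes, joined where neighbours lay at most 10 kb apart, held between 23 and 38 of the listed peaks. PIEZO1 and SNAI3 shared the run ranked 2 of 11245 by number of peaks, with 38 peaks over 145.7 kb of chromosome 16, 88742578 to 88888263. ZMIZ1 followed at rank 4 with 27 peaks over 115.5 kb, from 81000956 to 81116445. The run of CYTH2 and LMTK3 (72.6 kb), that of SEPT9 (111.9 kb) and that of FGFRL1 (71.1 kb) tied at rank 5 with 25 peaks each. RBM38 had 24 peaks over 92.9 kb, rank 8, and VENTX with ADAM8 had 23 over 115.7 kb, rank 9. Runs of 39, 30 and 23 peaks on chromosomes 19, 12 and 10 lay over other loci, and the next below had 22. Of the 178 peaks in the windows, 164 (92.1%) were in runs of 8 or more, against 14.1% of all listed peaks, a share that the choice of the genes sets.

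**Figure D2:**
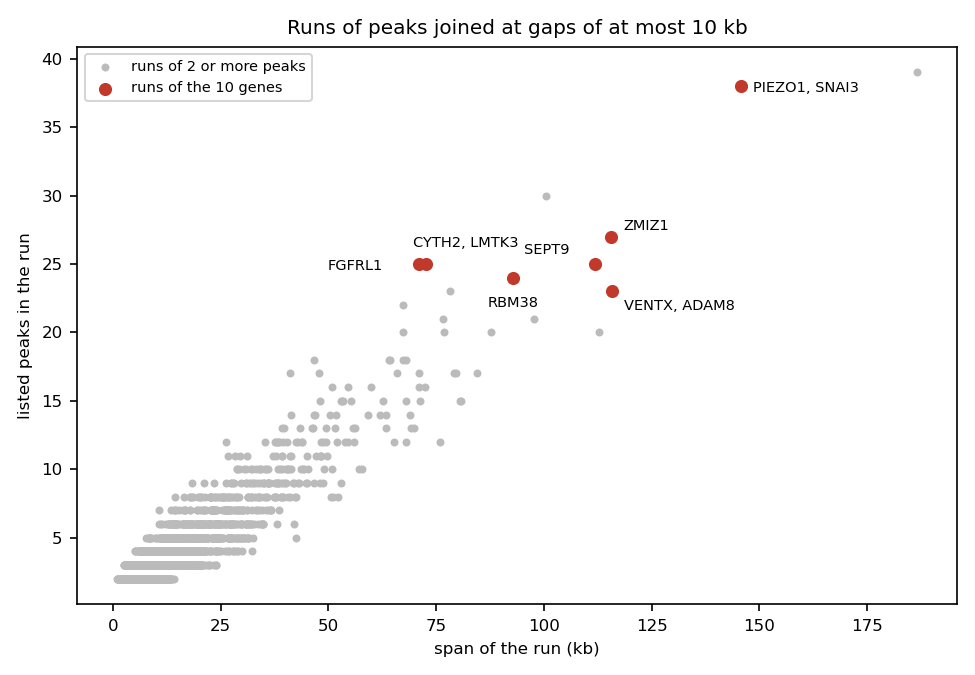
Each point is a run of 2 or more listed peaks, by its span in kb (x axis) and its number of peaks (y axis); red points are the 7 runs over the 10 genes. These runs span 71.1 to 145.7 kb, and the run of PIEZO1 and SNAI3 stands next to the top of the list by both measures.

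Rank by summed signal differed from rank by number of peaks in some of the 7 runs. All 7 stood within the first 167 of 11245 runs by summed signal. By the sum of the authors' total signal, which is coverage added up over the bases of a peak, the run of ZMIZ1 ranked 4 (741821) and that of VENTX and ADAM8 ranked 5 (730096). RBM38 ranked 11 (612368) and PIEZO1 with SNAI3 ranked 14 (585881). CYTH2 with LMTK3 and SEPT9 came 48 and 54 (360497 and 341733), and FGFRL1 came 167 with 213113. FGFRL1 and the run of CYTH2 and LMTK3 have like spans and the same number of peaks, and their summed signals differ by the amounts given.

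CYTH2 had its strongest signal right at the gene start. The peak at chromosome 19, 48971513 to 48974135, reached from 0.5 kb before the start to 2.1 kb after it, with a maximum of 361, the highest in any of the 10 windows and rank 32 of the whole list. Its total was 136565 over 2622 bp, which was 46.0% of the signal in the window. The other 18 peaks of the CYTH2 window had maxima between 10 and 52, so a tall peak stood among low ones. The CYTH2 sequence printed above, with its 3 GGGCGG matches, is that of the annotated start of the gene.

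LMTK3, the next gene in the annotation, runs toward CYTH2 from the opposite strand. The windows shared 14 peaks, 73.7% of the 19 in that of CYTH2 and 77.8% of the 18 in that of LMTK3, so the loci are largely a single stretch. At the LMTK3 start the strongest peak within 2 kb had a total of 11581 and a maximum of 29, at 49016231 to 49017566. The 18.4 kb farther upstream held no listed peak. The other peak within 2 kb, at 49012957 to 49014315 inside the gene, had a total of 6467 and a maximum of 15. Farther inside LMTK3 lay 8 peaks, with maxima between 10 and 52. The tallest peak of the LMTK3 window was that of the CYTH2 start, 41.9 to 44.5 kb from the start of LMTK3.

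ADAM8 carried the start peak with the highest total signal of the 10 genes, while that of CYTH2 was taller. It spanned 8586 bp at chromosome 10, 135086009 to 135094595, from 4.0 kb inside the gene to 4.6 kb before it. The total was 254232, rank 34 of 20085, and the maximum 184. Of the 178 peaks, 3 were among the 100 strongest of the list's 20085 by total, and this was the first of them. The genes were chosen on this list, so nothing is read from that count. Just past the other end of ADAM8 stood a peak that was shorter and taller, at 135070556 to 135075522, with a maximum of 244 and a total of 231174. Together they held 71.7% of the signal in the ADAM8 window. Between them lay 4 low peaks over the gene body, the broadest of 5459 bp with a maximum of 26. Peaks took up 63.0% of the window, the highest share of the 10.

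VENTX, which lies beyond the far end of ADAM8, had little signal at its own start. The nearest peak there lay 1.1 kb upstream, at 135048532 to 135049911, with a total of 6159 and a maximum of 11. The list's median maximum was 22 and its median total 6479, and this peak lay below both. From the end of VENTX to ADAM8 a chain of 6 peaks followed, which held 96.5% of the signal in the VENTX window and 50.9% of that in the ADAM8 window. Its members were the peak of maximum 244 named above, a peak at 135057959 to 135060377 with a maximum of 128, and 4 others with maxima of 10 to 25. Both windows share these 6 peaks, so the list cannot assign them to either gene.

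FGFRL1 showed the lowest signal per covered base of the 10 windows, 7.14, against 19.5 in ADAM8 and 11.7 in the whole list. Its strongest peak, at chromosome 4, 1003659 to 1005451, lay 0.5 to 2.3 kb before the start and had a total of 43954 with a maximum of 62. Another at 1036839 to 1039375, 30.8 kb from the start and past the end of the gene, had the highest maximum of the window, 69. The remaining 17 peaks had maxima from 7 to 17, and 3 of the 19 were 2 kb or longer. FGFRL1 is thus a long run of mostly low peaks.

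ZMIZ1 spread its 42 peaks over 287 kb in 4 separate runs. A run of 13 peaks covered the start and ended 40.5 kb into the gene, with a summed signal of 124570. A run of 5 peaks and a pair followed, and then came 59.8 kb without a peak, from 112.1 to 172.0 kb inside the gene. The last and longest run covered the final part of the gene and went on past its end. In it stood the longest peak of the 10 windows, 10342 bp at chromosome 10, 81040709 to 81051051, rank 11 of the list by length, with a total of 223938 and a maximum of 344. It lay 211.7 to 222.1 kb from the start. The peak with the next highest total of the window, 6076 bp long at 81025268 to 81031344, had a total of 133727 and a maximum of 131. Between them lay 2 weaker peaks, the longer of 6092 bp with a total of 38972.

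At the ZMIZ1 start itself the signal was modest. Within 2 kb of it were 3 peaks, the strongest with a total of 19987 and a maximum of 30, and together these made up 2.87% of the signal in the window. The gene body beyond them held 87.5%. A further peak at 81076092 to 81078573, just past the end of the gene, had a maximum of 97 and a total of 49597. Of the 42 peaks in the ZMIZ1 window 13 were 2 kb or longer.

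SEPT9 had no listed peak within 2 kb of the start used here, the only such case among the 10 genes. The nearest lay 6.6 kb upstream and was near the lower limit of the list, with a total of 2798 against a lowest listed total of 2577. Inside SEPT9 the first peak came 37.2 kb after the start, in a group of 4, and the run of 25 peaks lay farther in, between 75359783 and 75471705. All of that run fell within the gene, and 99.3% of the signal in the window lay in the gene body. Its tallest peak, at chromosome 17, 75436420 to 75438479, had a maximum of 142 and a total of 52975, and was 12.7% of the signal in the window. In no other window was the share of the strongest peak as low. RefSeq lists 10 promoter entries for SEPT9, spread through the gene. Of these, 6 hold GGGCGG (44.9% of all promoters), 4 hold GAGGAA (27.9%), 3 hold TGTGGT (13.1%), 3 hold TGACTCA (4.96%), 2 hold AGGTCA (13.8%), 1 holds TATAAA (11.6%) and 0 hold TTGCNNAA (10.5%). The inner starts are on another build, so only distances from the gene start could be set beside the peaks. The entries at 38019 and 91838 bases fell within the peaks at 37.2 to 39.1 and 91.0 to 94.1 kb. Those at 6436, 169250 and 169985 bases fell in none. For the other inner entries a peak edge was too near to tell, with the start known to 1 kb. Equal distances in both builds were assumed and not checked.

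PIEZO1 had many low peaks through its body and stronger ones on both sides. Of its 29 peaks, 15 lay in the body away from the start and held 28.4% of the signal, while 35.2% lay upstream and 27.6% downstream. The peak over the start, at chromosome 16, 88847099 to 88851005, was 3906 bp long with a maximum of 37 and a total of 37144. Higher maxima were found 12.8 to 15.1 kb inside the gene (107, total 64137, at 88835897 to 88838167) and 6.8 to 9.5 kb before it (67, total 81692). In the body the other 14 peaks had maxima from 8 to 30. The median maximum over the PIEZO1 window was 14, as in FGFRL1, the lowest of the 10 windows.

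SNAI3 shares the run with PIEZO1, and 3 peaks were in both windows, 37.5% of the 8 in that of SNAI3 and 10.3% of those in that of PIEZO1. Its start carried a peak at 88751304 to 88753531 with a maximum of 30 and a total of 21550. The strongest peak of both windows lay between the genes, at 88763563 to 88770854. It was 7291 bp long, with a total of 96136 and a maximum of 78, and held 50.7% of the signal in the SNAI3 window. It lay 10.6 to 17.9 kb before the start of SNAI3. The annotation places RNF166, which encodes a RING-type ubiquitin ligase, and CTU2, which encodes a tRNA thiolation factor, between SNAI3 and PIEZO1, so this peak is not tied to either of the 2 members by position.

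RBM38 lay at the edge of its run. Its start was covered by a peak at chromosome 20, 55965246 to 55966512, with a maximum of 28 and a total of 10544, flanked by 2 more within 2 kb. A peak of 3541 bp inside the gene reached 41. Past the end of RBM38 the highest maximum was 90, at 55999486 to 56003106 (total 58159), which was 34.7% of the signal in the window. The run went on beyond the 20 kb flank: 12 of its 24 peaks and 73.1% of its signal lay there, led by a peak at 56022851 to 56028058 with a total of 165138 and a maximum of 181. In the other 6 runs no more than 16.9% of the signal (FGFRL1) lay outside the windows. The next gene on that side in the annotation is CTCFL, a germline paralogue of CTCF.

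The position of the signal varied from gene to gene. A peak within 2 kb of the start was found in 9 of 10, where 40.9% of 369 genes in a sample of gene models that comes with the software had such a peak. Those models do not name their build and are no random draw of genes. Their ADAM8 start lay 372 bp from the hg19 start used here. The 10 genes were chosen under dense peaks, so nothing is read from this contrast. The start peak was the strongest of the window in 3 of 10, CYTH2, ADAM8 and FGFRL1. How often this holds for other genes was not measured, so the count is a description only. The share of window signal in peaks within 2 kb of the start was 48.3% in CYTH2, 37.6% in ADAM8 and 30.0% in FGFRL1. It was 15.3% in RBM38 and 11.4% in SNAI3, and in PIEZO1, LMTK3, ZMIZ1 and VENTX it lay between 1.72% and 8.82%. SEPT9 had no such peak. The flank past the gene end held the largest share in LMTK3 (58.5%), RBM38 (62.6%), VENTX (96.5%), ADAM8 (50.9%) and FGFRL1 (40.5%). These are not separate cases: the flanks of VENTX and ADAM8 hold the same 6 peaks. In LMTK3 the start peak of CYTH2 alone made up 44.7% of the signal in the window.

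**Figure D3:**
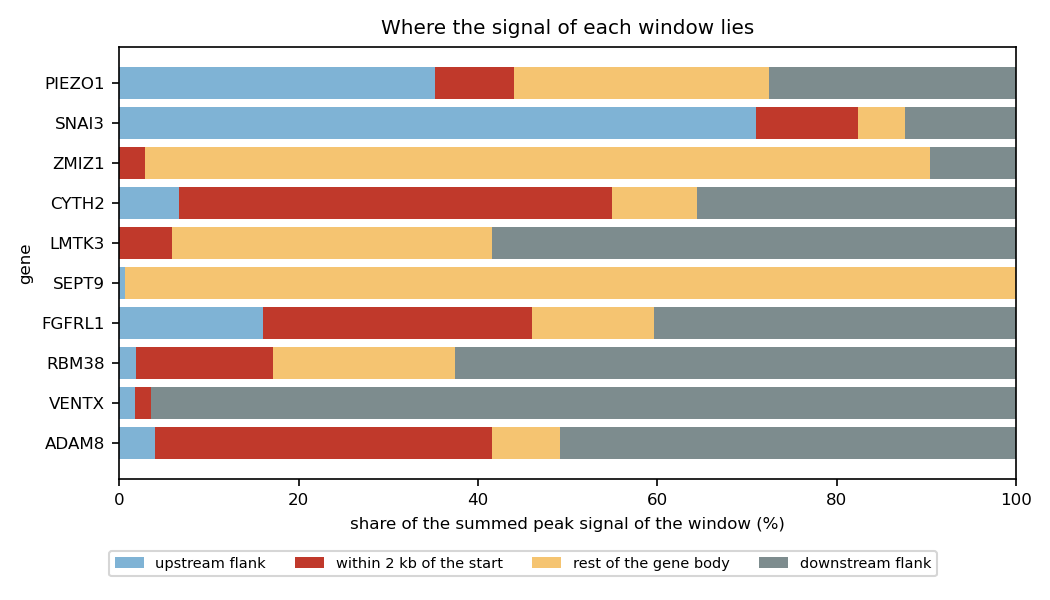
Bars give the share (%, x axis) of the summed peak signal of each gene's window (y axis) in the upstream flank, in peaks within 2 kb of the start, in the rest of the gene body and in the downstream flank; a peak counts where its midpoint lies unless it touches the 2 kb around the start. SEPT9 and ZMIZ1 have most of their signal in the gene body (99.3% and 87.5%), CYTH2 has 48.3% at the start, and VENTX 96.5% downstream.

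By their medians, the peaks of these windows were longer and had lower maxima than those of the whole list. Peaks of other long runs were not compared. The genes were chosen by the number of peaks in runs of this same list, so nothing is read from these contrasts. Median length was 1181.5 bp (interquartile range 764 to 2051.75 bp) in the 178 peaks and 893 bp in all 20085, and in each of the 10 windows the median exceeded 893 bp, from 992 bp in PIEZO1 to 1843 bp in VENTX. In the windows 46 peaks (25.8%) were 2 kb or longer, against 11.0% of the list. Median maximum was 16 in the windows and 22 in the list, and by window it was below 22 in 8, equal in ADAM8 and above in SNAI3 (23.5). The signal per base had a median of 5.90 against 7.53. Summed over all peaks, the signal per covered base was 11.3 in the windows and 11.7 in the list. Median total was 6927 against 6479, and 7 of the 10 windows had a median total above that of the list. The 10 windows form only 7 separate stretches, so the counts of windows given here use some peaks more than once. The difference in height was present among short and long peaks alike: peaks under 2 kb had a median maximum of 14 in the windows and 20 in the list, and those of 2 kb or longer had 42.5 and 59. A maximum of 100 or more was reached by 8 of the 178 (4.49%), a share near the 5.15% of the list. These 8 lay in the windows of CYTH2, ADAM8 and VENTX, ZMIZ1, SEPT9 and PIEZO1, with that of CYTH2 also in the window of LMTK3.

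**Figure D4:**
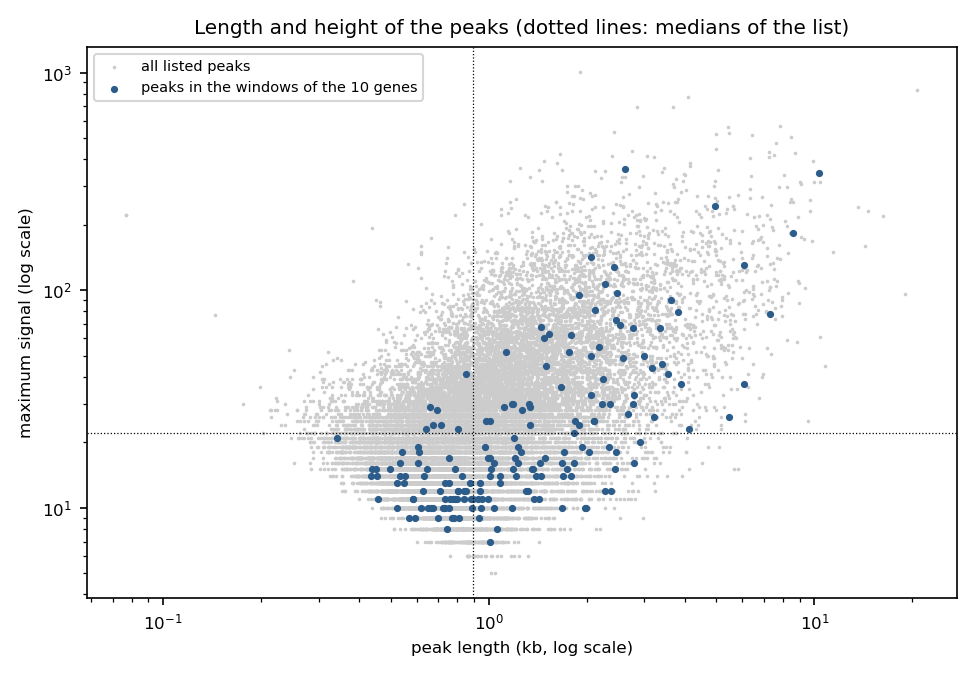
Each point is a listed peak by its length (x axis, kb, log scale) and its maximum signal (y axis, log scale), in grey for the whole list and in blue for the 178 peaks in the windows of the 10 genes; dotted lines mark the list's medians of 893 bp and 22. Blue points extend to long peaks, up to 10342 bp in ZMIZ1, and many lie under the median maximum.

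Peaks in these loci lay close together, which the choice of genes under long runs sets. Nothing is read from the contrasts with the list given here. Between neighbouring peaks in the windows the median gap was 1247 bp, and 71 of 171 gaps (41.5%) were 1 kb or less, against 14.6% of 20056 gaps in the list. In ADAM8 the median gap was 537 bp and in SEPT9 3017 bp. Joining peaks within 1 kb took the windows from 178 to 107 peaks, 39.9% fewer, and the list from 20085 to 17149, 14.6% fewer. After joining, the median length was 1736 bp in the windows and 940 bp in the list, and the median maximum 18 and 23. Whether such neighbours are separate sites or broken pieces of a broad stretch cannot be told apart from the list, since the coverage between peaks was not analysed here.

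Weak peaks were present in every window, and over all windows they were about as frequent as in the whole list. In the windows 49 of 178 peaks (27.5%) had a total under 3755, the lower quartile of the list, and 26 (14.6%) were among the strongest 10.0% of the list. The quartile sets the share of weak peaks in the list, so nothing is read from their presence in each window. PIEZO1 had 12 of the weak ones and ADAM8 had 4. The strongest peak exceeded the median peak of its window 26.3 times in total signal in ZMIZ1, 24.4 times in CYTH2 and 5.48 times in SNAI3. The 178 peaks together held 1.17% of the list's summed signal with 0.886% of its peaks.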

How the data were processed

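Both replicates of the antibody profile are represented by 1 merged peak list on hg19. Trimmomatic, Bowtie2, SAMtools, bedtools and SEACR are named in the submitters' processing notes; for versions, the SEACR threshold, any control track and the way of merging, the entry is: not given in the sources used here. In the deposited list each peak has 2 signal values, taken here as SEACR's total and maximum signal: in all 20085 rows the former exceeds end minus start, and in 0 rows does it exceed length times maximum. No scaling to depth is stated and the depth is unknown. Positions are printed as listed. A peak counted for a window at an overlap of at least 1 base. Runs joined peaks with gaps of at most 10 kb. Run joining and overlap counts were tested on simulated data. Gene positions in hg19 (to 1 kb) came with the choice of the genes; the ADAM8 start in the gene models of pyranges 0.1.4, which do not name their build, lay 372 bp from the one used, and chromosome lengths came from the same package's example data. Promoters were matched by symbol, for SEPT9 by its synonym (RefSeq, GRCh38.p14). The genes named are the 10 members and annotated neighbours placed between or beside them. Members, lists and settings were chosen with earlier results of these data known. No test was made, since the genes were chosen on this list and it holds no value per replicate. Whether the replicates came from separate cultures is unstated. Tables were made with pandas 2.3.3 and numpy 2.4.6 and figures with matplotlib 3.10.9.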

Additional observations from a re-analysis of the deposited data

How the results depend on the processing

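The number of peaks in the windows, 178, was 154 with a flank of 10 kb, 227 with 50 kb and 175 when 50% of a peak had to lie inside. It moved further, to 112 with the gene bodies alone, to 93 with only peaks at or above the list's median total signal and to 107 with peaks within 1 kb merged. The share of the list's signal, 1.17%, was 0.757% with the gene bodies alone, 1.03% and 1.44% with flanks of 10 and 50 kb, and 1.23% among peaks at or above the median total. Peaks of 2 kb or longer numbered 46, 49 after merging and 30 in the gene bodies alone. A peak near the start was found in 9 genes within 2 kb, in 8 within 1 kb, in 9 within 5 kb and in 8 with the weaker peaks left out. All 10 genes touched a run of 8 or more peaks at gaps of 5, 10 and 20 kb and after merging, and 7 did with the weaker peaks left out. The choice of genes under long runs sets these counts, and nothing is read from them. The rank of a run depended on the gap: at 5 kb the largest run of CYTH2 and LMTK3 ranked 2 with 20 peaks and those of SEPT9 and SNAI3 ranked 42 with 10 each, and at 20 kb that of PIEZO1 and SNAI3 ranked 1 with 52. Gene starts are known to 1 kb only, which limits the counts within 1 and 2 kb. No paired analysis was possible because the list holds no column per replicate, and for the same reason no replicate could be left out.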
